A study of Mus musculus with 6 samples.

Results

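The genes described here encode the nucleolar machinery that makes ribosomes. They comprise subunits and initiation factors of RNA polymerase I, nucleolar chaperones, the protein cores of small nucleolar ribonucleoproteins (snoRNPs) and assembly factors of the small and large ribosomal subunits. The 40 genes were chosen by name and function, with earlier results of these data known. All 40 were among the 14883 genes in the table, and all 40 passed the filter on low counts that left 12377 genes for testing. The cells were B16F10luc2, an established mouse melanoma line of the B16F10 lineage, grown in serum-containing medium on culture plates with an elastic bottom. In 3 samples the plate bottom was stretched equally along both axes by 15%, at 15 cycles a minute, for 24 h, and 3 static samples were grown on such plates without stretch. No genotype, agent or age separates the groups, and the comparison asks how mRNA levels under stretch differ from those in static culture. All samples came from 1 cell line, and the labels do not say whether replicates were separate cultures. The p-values therefore reflect no more than the spread among these 6 libraries, which may be technical.

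Ribosome production begins in the nucleolus, where RNA polymerase I transcribes the long precursor of the ribosomal RNAs. Box C/D snoRNPs methylate this precursor and box H/ACA snoRNPs turn chosen uridines into pseudouridines, while the small subunit processome folds and cleaves its first part. The remaining pieces mature along separate routes into the small (40S) and large (60S) subunits. In many dividing cells and in tumours these genes are known to be transcribed together, often under the transcription factor MYC, and a large nucleolus is a classic mark of aggressive melanoma. The measurements here are of mRNA, and ribosomal RNA itself was not analysed here.

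Total counts per library were 36351400, 21611160 and 20494344 in stretch replicates 1 to 3, and 26372924, 19469286 and 30042222 in static replicates 1 to 3. The lowest count of any member in any library was 228, for Polr1e. Levels are given as CPM, a gene's share of the counts on a fixed common total, with library sizes adjusted by TMM, the trimmed mean of M-values. The 7 melanocyte markers summed to 19850 to 20440 CPM in stretched libraries and 22400 to 24770 CPM in static libraries. Of these the pigment genes Tyrp1, Pmel and Dct fell, and Mitf, the gene of the lineage's master transcription factor, rose. Tyr, also a pigment gene, Mlana and Sox10 were not called in either direction. Keratinocyte markers were not in the table (0 of 4), and 1 of 4 leukocyte and 1 of 4 endothelial markers were, with sums of at most 1.33 CPM in any library. Fibroblast markers (4 of 5 in the table) summed to 15.72 to 17.15 CPM in stretched and 12.98 to 17.87 CPM in static libraries. Pdgfra rose, Col1a1 fell, Col1a2 was not called, and Dcn was too low to test. The part of these markers in the results was not tested.

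Summed over the machinery, mRNA was slightly more abundant under stretch. The summed level of the 40 members was 6444.5 ± 54.5 CPM in stretched libraries and 5532.6 ± 30.1 CPM in static libraries (SD, n = 3 each), 1.16 times as high under stretch. Ncl and Npm1 took the most counts and made up 18.9% and 16.6% of that sum, and without them the other 38 summed to 4059.5 ± 16.5 and 3661.9 ± 44.8 CPM in stretched and static libraries. With edgeR's quasi-likelihood test and a threshold of 0.05 on the adjusted p, 23 of the 40 members rose (57.5%, where 24.9% of all genes tested rose) and 2 fell (where 25.9% of all genes fell). In either direction 50.9% of all genes tested were called, so a call by itself was common in this comparison. In 25 members every stretched library lay above every static library, and in 2 every one lay below, where 29% and 29.4% of all genes did so, or 58.5% in either direction. In bulk RNA, fewer cells of a kind and less RNA per cell cannot be told apart, and these levels are relative to each library's total.

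The changes were small. The median log2 fold change of the 40 members was 0.145, a median of 1.11-fold, against 0.004 for all genes tested, and single members ranged from -0.12 to 0.48. The glmTreat test of edgeR, which asks for a change beyond 1.2-fold, called 6 members higher (Gnl3, Nolc1, Ncl, Polr1e, Nop56 and Dkc1) and none lower, against 5.49% higher and 7.38% lower of all genes. Levels of the members in single libraries, taken against the static mean, had medians of 0.142, 0.14 and 0.16 on the log2 scale in stretch replicates 1 to 3, and of 0.02, -0.007 and 0.016 in static replicates 1 to 3. All 3 stretched libraries lay above all 3 static ones by this measure. Scaling by library size alone, which put the median of all genes at 0.063, called 29 members higher and none lower; over all genes it called 4115 higher and 2402 lower, against 3087 and 3211 with TMM.

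**Figure D1:**
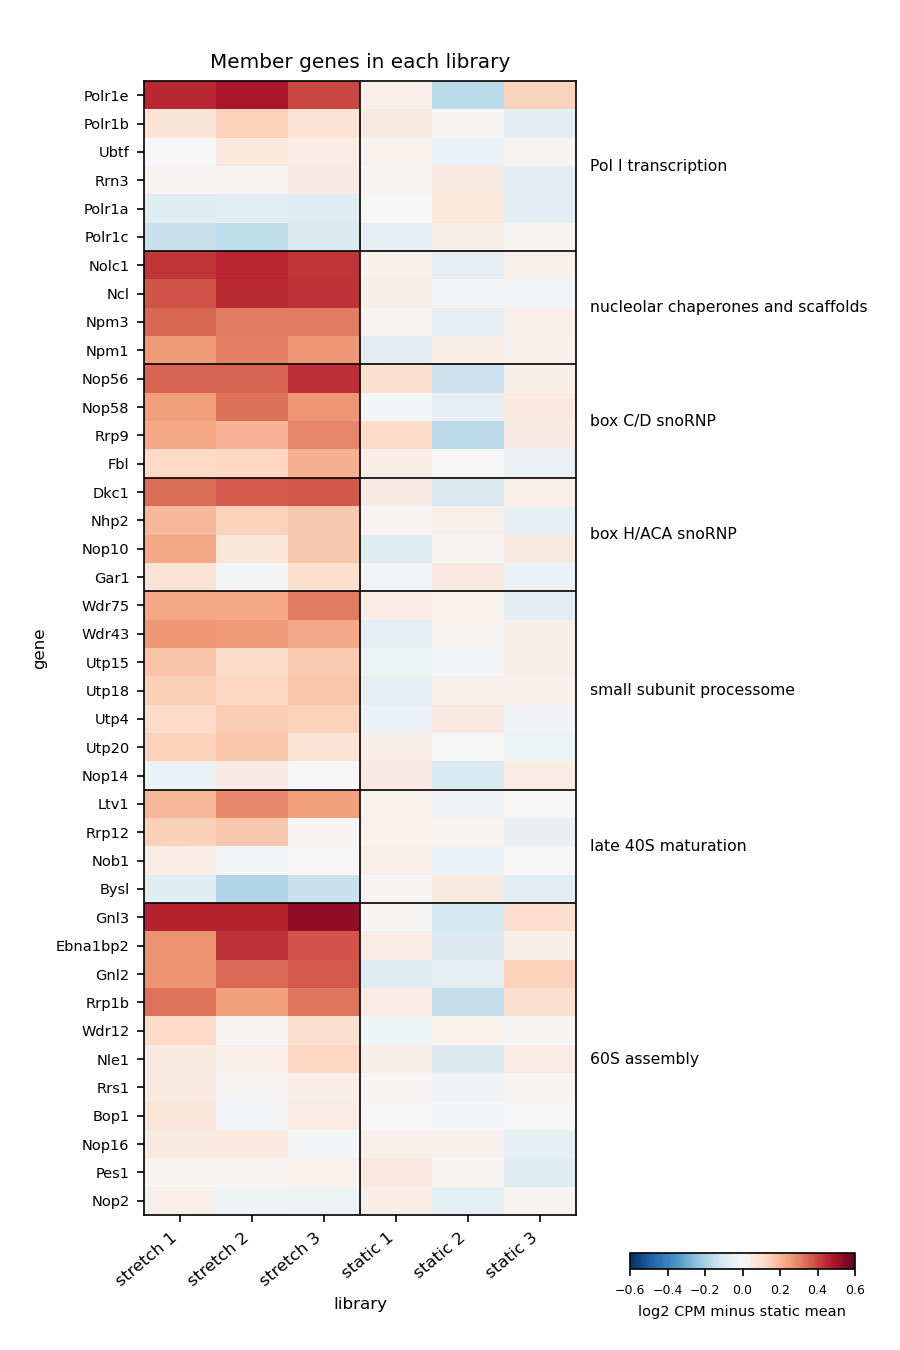
Log2 CPM of each of the 40 members (rows, grouped by role) in the 3 stretched and 3 static libraries (columns), minus the mean of the static libraries, with red above and blue below that mean. The chaperone and box C/D rows are red in every stretched library, while most Pol I rows and the lower 60S rows stay pale.

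All 4 genes of nucleolar chaperones and scaffolds rose, where 24.9% of all genes tested rose. Nolc1 (Entrez Gene 70769; chromosome 19, 46075847 to 46085543 in GRCm38), a phosphoprotein gene whose product shuttles snoRNPs between Cajal bodies and the nucleolus, had 246.6, 251.3 and 246.1 CPM in stretched libraries, against 186.6, 176.3 and 186.4 CPM in static libraries. The groups were far apart and did not overlap, and Nolc1 had the lowest p of the 40 members (log2 fold change 0.44, SE 0.036, adjusted p = 1.73e-07). Ncl (Entrez Gene 17975; chromosome 1, 86344719 to 86359455), the gene of nucleolin, which binds the nascent precursor RNA, had 1259, 1324 and 1308 CPM in stretched libraries, against 992.4, 958.1 and 957.9 CPM in static libraries. The lowest stretched library was well above the highest static one, and its gain of 33.8% was larger than the spread within either group (adjusted p = 1.73e-07). With an offset for GC content and transcript length its log2 fold change of 0.42 became 0.29, and it stayed called.

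Both nucleophosmin family genes rose as well. Npm1, the abundant chaperone gene of the outer nucleolus, had 1075, 1111 and 1078 CPM in stretched libraries, against 861.2, 924.8 and 917.5 CPM in static libraries (log2 fold change 0.27, SE 0.037, adjusted p = 2.28e-05). Npm3, its small relative, had 62.41, 61.05 and 60.93 CPM in stretched libraries, against 49.65, 47.55 and 50.24 CPM in static libraries (log2 fold change 0.32, SE 0.041, adjusted p = 1.25e-05). In both genes the lowest stretched library exceeded the highest static one. Npm1 has closely related copies in the genome, so the split of its estimated counts is uncertain.

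**Figure D2:**
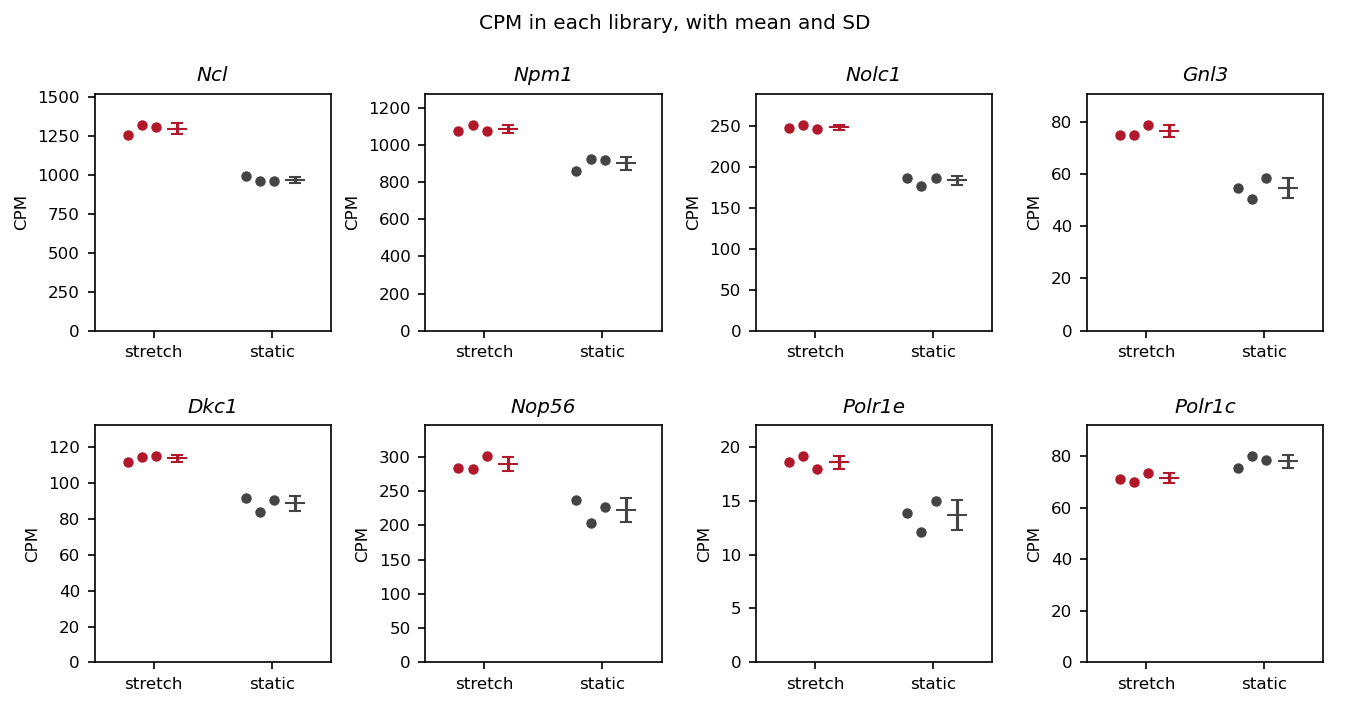
CPM of 8 members in each stretched (red) and static (grey) library, with the mean and SD of the 3 libraries beside the points; every axis starts at 0. Ncl has 1259 to 1324 CPM in stretched and 957.9 to 992.4 CPM in static libraries, and Polr1c is the gene shown whose stretched libraries lie below the static ones.

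All 4 box C/D snoRNP genes rose, where 24.9% of all genes tested rose. Nop56 (Entrez Gene 67134; chromosome 2, 130274367 to 130279313), which with Nop58 forms the scaffold of the particle, had 283.4, 282.9 and 300.7 CPM in stretched libraries, against 237.5, 203.0 and 227.3 CPM in static libraries. The static values were more scattered than the stretched ones, and the groups stayed apart (log2 fold change 0.37, SE 0.05, adjusted p = 2.03e-05). Nop58 averaged 237.6 ± 7.06 CPM in stretched and 195.6 ± 7.27 CPM in static libraries (SD, n = 3 each), 21.3% higher under stretch. Its log2 fold change of 0.28 became 0.11 under the offset for GC content and length (adjusted p = 0.0168). Fbl, the gene of fibrillarin, the methyltransferase of the particle, rose by a modest 11% (adjusted p = 0.00521), with averages of 116.1 ± 4.31 and 104.5 ± 2.89 CPM in stretched and static libraries. Rrp9, specific to the U3 snoRNP, averaged 32.18 ± 0.98 and 27.25 ± 2.57 CPM in stretched and static libraries (adjusted p = 0.00655).

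Of the 4 box H/ACA snoRNP genes 3 rose (75%, where 24.9% of all genes tested rose). Dkc1 (Entrez Gene 245474; chromosome X, 75095854 to 75109776), the pseudouridine synthase gene, had 111.8, 114.5 and 115.0 CPM in stretched libraries, against 91.83, 83.99 and 90.75 CPM in static libraries. Every stretched value lay above every static value, and the gain was 27.7% (log2 fold change 0.35, SE 0.04, adjusted p = 4.83e-06). In people, inherited defects of this gene cause dyskeratosis congenita, and the particle also serves telomerase. Nhp2, a core protein gene, averaged 144.8 ± 2.81 CPM in stretched and 129.1 ± 3.56 CPM in static libraries (adjusted p = 0.00153). Nop10, the smallest core protein gene, averaged 41.7 ± 2.33 CPM in stretched and 37.41 ± 1.67 CPM in static libraries (adjusted p = 0.0192), and it lost its call under the offset for GC content and length (adjusted p = 0.0839) and without stretch replicate 1 (0.141), stretch replicate 3 (0.05) or static replicate 1 (0.107). Gar1, the remaining core gene, overlapped between groups, at 0.06 on the log2 scale (SE 0.051, adjusted p = 0.319), and it passed under the offset for GC content and length (0.15, adjusted p = 0.0231).

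Of the 7 genes of the small subunit processome 6 rose, by 9.45% to 19.7%, where 24.9% of all genes tested rose. Wdr75 and Wdr43 belong with Utp4 and Utp15 to the subcomplex that binds the precursor first. Wdr75 had 114.8, 114.8 and 121.2 CPM in stretched libraries, against 100.7, 99.04 and 93.39 CPM in static libraries (log2 fold change 0.26, SE 0.041, adjusted p = 9.63e-05). Wdr43 had 116.9, 116.7 and 114.3 CPM in stretched libraries, against 94.15, 98.78 and 100.2 CPM in static libraries (log2 fold change 0.25, SE 0.038, adjusted p = 6.95e-05). In both, stretched and static libraries were cleanly separated. Utp4 and Utp15 had smaller log2 fold changes of 0.14 and 0.15 (adjusted p = 0.00773 and 0.00718), and Utp4 lost its call without static replicate 1 (adjusted p = 0.0514). Utp18, of another subcomplex, and Utp20, a very large scaffold protein gene, had log2 fold changes of 0.14 and 0.13, and neither was called once GC content and length were offset (adjusted p = 0.212 and 0.41). Utp20 also failed to pass without stretch replicate 2 (adjusted p = 0.0594). Nop14 averaged 72.38 ± 2.12 CPM in stretched and 72.18 ± 3.82 CPM in static libraries, a difference smaller than the spread within either group (adjusted p = 0.977).

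Promoters of the members were searched for the E-box CACGTG, the site that MYC and related factors bind. RefSeq promoter windows of GRCm38.p6, 250 bases before to 50 after an annotated start, were found for 34 members. The motif, which reads the same on both strands, was in 9 of these 34 (26.5%), against 11.8% of the 9892 tested genes with a window. Counted by window, it was in 9 of 42 windows of members and in 7.15% of all 32851 windows, those of untested genes included. Of the 9 members with the motif 5 rose (Wdr43, Ltv1, Utp18, Utp4 and Utp20) and of the 25 without it 15 rose, among them Ncl and Nolc1. Of the 9, 4 are processome genes. The promoters of the rising members whose motif ends no further than 30 bases past the start are printed up to that base. The E-box is in capitals and the rest in lower case, so that its distance from the start can be seen. The windows are chr17:71615965-71616244 on the plus strand, chr11:93885737-93886016 on the minus strand and chr8:106893390-106893669 on the plus strand.
Wdr43: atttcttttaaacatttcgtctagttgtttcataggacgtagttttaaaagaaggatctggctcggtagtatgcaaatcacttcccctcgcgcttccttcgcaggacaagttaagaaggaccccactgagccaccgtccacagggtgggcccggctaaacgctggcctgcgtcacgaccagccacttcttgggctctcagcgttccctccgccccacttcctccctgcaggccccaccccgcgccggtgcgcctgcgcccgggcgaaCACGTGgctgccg
Utp18: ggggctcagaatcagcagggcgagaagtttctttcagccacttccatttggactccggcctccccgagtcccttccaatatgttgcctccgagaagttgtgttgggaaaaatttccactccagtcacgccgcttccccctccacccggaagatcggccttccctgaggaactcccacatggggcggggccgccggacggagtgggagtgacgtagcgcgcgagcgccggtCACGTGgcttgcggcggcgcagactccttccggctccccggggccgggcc
Utp4: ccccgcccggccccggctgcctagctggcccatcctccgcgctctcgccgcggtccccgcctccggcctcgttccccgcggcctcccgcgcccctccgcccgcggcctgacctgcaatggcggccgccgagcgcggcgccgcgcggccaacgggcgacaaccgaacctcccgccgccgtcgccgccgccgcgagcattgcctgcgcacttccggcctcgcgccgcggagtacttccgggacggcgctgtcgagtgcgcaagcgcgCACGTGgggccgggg
In Wdr43 and Utp4 the E-box began 18 and 16 bases past the start, counting the first transcribed base as 1, and in Utp18 it began 20 bases before it. In Ltv1 and Utp20 it began at bases 29 and 38 past the start. CACGCG, a variant of the E-box, was in 10 of the 34 members (29.4%) against 20.3% of tested genes. GGGCGG, the GC box, was in 26 (76.5%) against 69.3%. Both were searched on both strands. A match of letters is a description and does not show binding.

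Of the 4 genes of late small subunit maturation 1 rose and 1 fell, shares near those among all genes tested (24.9% and 25.9%). Ltv1, an assembly factor gene of the 40S precursor, had 54.65, 58.06 and 56.37 CPM in stretched libraries, against 48.30, 46.92 and 47.59 CPM in static libraries, with no overlap (log2 fold change 0.24, SE 0.042, adjusted p = 0.000233). Bysl, the gene of bystin, which rides on the same precursor out of the nucleolus, had 68.86, 64.13 and 65.91 CPM in stretched libraries, against 72.97, 75 and 69.18 CPM in static libraries. It fell by 8.01%, and the highest stretched library lay just under the lowest static one (log2 fold change -0.12, SE 0.043, adjusted p = 0.0307). The call was lost in DESeq2 (adjusted p = 0.0636), with upper quartile scaling (0.0525), library size scaling (0.239), thinned counts (0.0668) and the GC and length offset (0.491), and without static replicate 1 (0.0959), static replicate 2 (0.0754), stretch replicate 2 (0.127) or stretch replicate 3 (0.0806). Exons of Bysl share 361 bases with those of Ccnd3 on the other strand. Ccnd3, a cyclin gene, was itself lower, at 495.1 CPM in stretched and 562.3 CPM in static libraries, and without known strand the reads of the shared bases cannot be told apart. Exons of 15 other members overlap a gene on the other strand by 5 to 185 bases, and those of Gnl3, Ncl, Nop56 and Nop58 overlap small RNA genes on the same strand. Rrp12, a factor of the export of 40S precursors, stood at 0.11 on the log2 scale and missed the threshold (adjusted p = 0.0629). It passed with upper quartile scaling (0.12, adjusted p = 0.0362), library size scaling (0.17, adjusted p = 0.00816), the filter at 5 CPM (0.11, adjusted p = 0.0472), the GC and length offset (0.2, adjusted p = 0.00281), and also without stretch replicate 3 (0.15, adjusted p = 0.018) and without static replicate 2 (0.12, adjusted p = 0.0486). Nob1, the nuclease gene that cuts the end of 18S ribosomal RNA, averaged 49.59 ± 0.97 CPM in stretched and 49.19 ± 1.12 CPM in static libraries (adjusted p = 0.824).

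Of the 11 genes of 60S assembly 4 rose (36.4%, where 24.9% of all genes tested rose) and none fell (where 25.9% of all genes fell). Gnl3 (Entrez Gene 30877; chromosome 14, 31012433 to 31019131), the gene of the GTPase nucleostemin, which is abundant in stem and tumour cells, had 75.09, 75.04 and 78.95 CPM in stretched libraries, against 54.76, 50.59 and 58.45 CPM in static libraries. Its groups were well separated, and its log2 fold change of 0.48 (SE 0.049, adjusted p = 1.8e-06) was the highest of the 40 members. Gnl2, a related GTPase gene, had 49.81, 52.27 and 53.26 CPM in stretched libraries, against 39.08, 39.68 and 45.37 CPM in static libraries (adjusted p = 0.000296). Ebna1bp2, an early 60S factor gene, averaged 74.12 ± 4.2 and 57.75 ± 2.94 CPM in stretched and static libraries, 27.5% higher (adjusted p = 3.72e-05). Rrp1b, a nucleolar protein gene that in human and mouse studies has been linked to metastasis, averaged 59.32 ± 1.83 CPM in stretched and 48.4 ± 4.11 CPM in static libraries, 22% higher (adjusted p = 0.000449).

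The other 7 genes of the 60S route had log2 fold changes from -0.01 to 0.08, each with an SE of 0.035 to 0.054. They include the whole PeBoW complex, which processes the large subunit precursor. Pes1 averaged 176.7 ± 0.733 CPM in stretched and 174.7 ± 7.79 CPM in static libraries, and Bop1 averaged 197.1 ± 5.99 CPM in stretched and 192.3 ± 0.614 CPM in static libraries (adjusted p = 0.74 and 0.414). Wdr12, the gene of the remaining subunit, stood at 0.08 on the log2 scale (SE 0.041, adjusted p = 0.132), which turned to -0.11 with the GC and length offset and became 0.14 with library size scaling (adjusted p = 0.0122). In Rrs1, which helps to dock the 5S particle, every stretched library lay above every static one, but by so little (101.2 to 103.9 CPM in stretched against 98.51 to 100.8 CPM in static libraries) that it did not pass (adjusted p = 0.384). Nop2, a methyltransferase gene of the large ribosomal RNA, Nop16 and Nle1, a late 60S factor gene, had adjusted p values of 0.863, 0.5 and 0.35. With the GC and length offset Bop1, Rrs1 and Nle1 passed, at log2 fold changes of 0.14, 0.12 and 0.19, and with library size scaling Bop1 and Rrs1 passed, at 0.1 each.

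**Figure D3:**
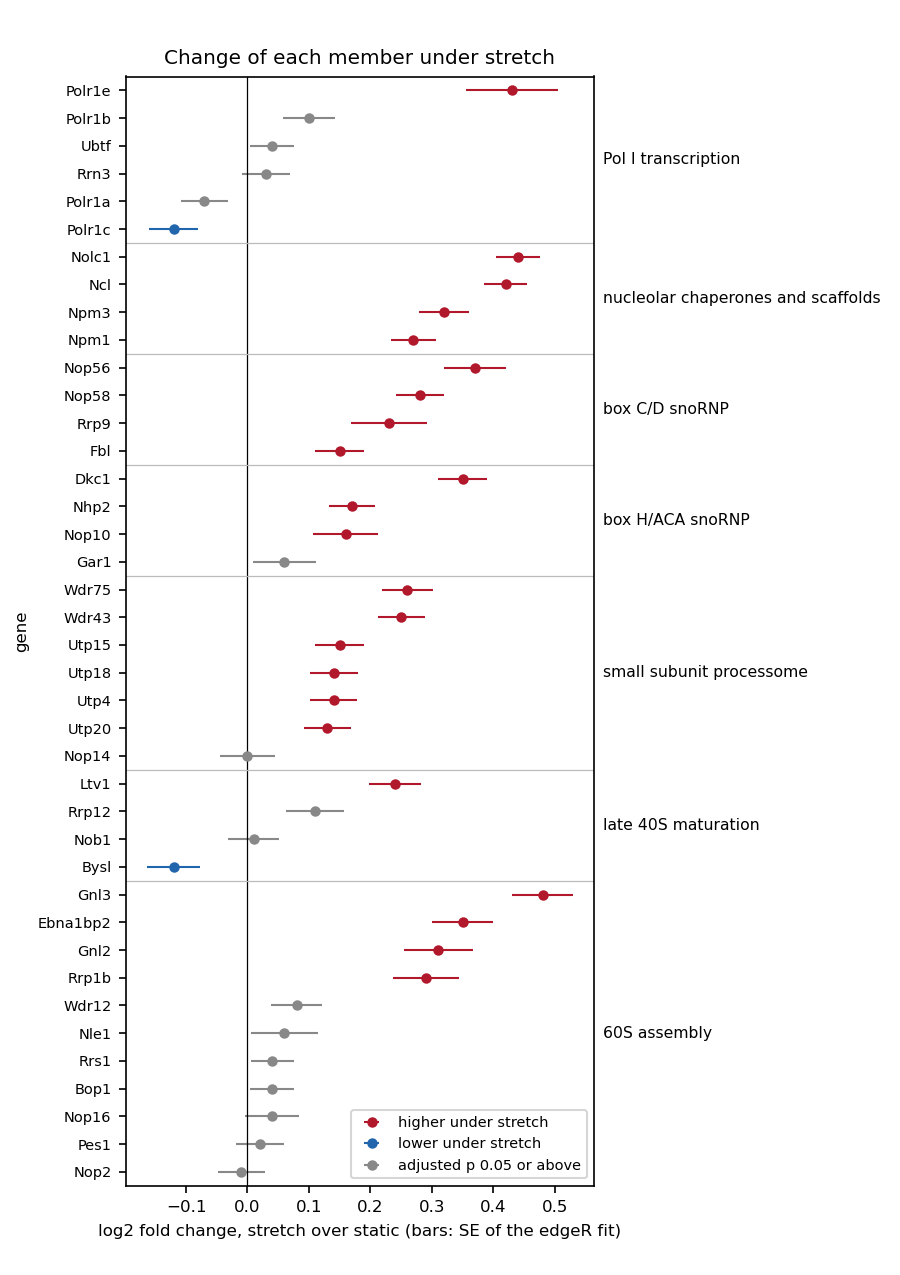
Log2 fold change of each member, stretch over static, with the SE of the edgeR fit, grouped by role; red points are higher and blue points lower at an adjusted p under 0.05. The 4 chaperone genes lie between 0.27 and 0.44, while 4 of the 6 Pol I genes lie between -0.07 and 0.10 and did not pass.

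Of the 6 genes of RNA polymerase I and its factors 1 rose, 1 fell and 4 did not pass. Among all genes tested 24.9% rose and 25.9% fell. Among 11 other Pol I transcription genes, described below, 8 rose and none fell. Polr1e (Entrez Gene 64424; chromosome 4, 45018609 to 45034279), a subunit gene of the heterodimer that is particular to this polymerase, had 18.59, 19.10 and 17.93 CPM in stretched libraries, against 13.86, 12.13 and 14.92 CPM in static libraries. The groups did not overlap, and the gain was 34.7% (log2 fold change 0.43, SE 0.075, adjusted p = 0.000237). It was the least abundant member per length, at 6.21 and 4.57 RPKM (CPM per kilobase of the longest annotated transcript) in stretched and static libraries. Polr1c, a subunit that RNA polymerase III shares, had 70.93, 70.01 and 73.49 CPM in stretched libraries, against 75.25, 79.89 and 78.61 CPM in static libraries (log2 fold change -0.12, SE 0.04, adjusted p = 0.0165). All 3 stretched values lay below all static ones, but the call was lost under the offset for GC content and length (-0.06, adjusted p = 0.194), with library size scaling (-0.06, adjusted p = 0.182) and without stretch replicate 1 (adjusted p = 0.0695) or stretch replicate 2 (adjusted p = 0.0709).

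The catalytic core genes did not pass in either direction. Polr1a, the gene of the largest subunit, averaged 256.9 ± 1.19 CPM in stretched and 269.8 ± 12.4 CPM in static libraries, with overlapping groups (log2 fold change -0.07, SE 0.038, adjusted p = 0.145); without static replicate 3 it passed as lower (-0.1, adjusted p = 0.0203). Polr1b, the second largest subunit gene, averaged 71.57 ± 1.71 and 66.75 ± 2.67 CPM in stretched and static libraries, with no overlap and an adjusted p of 0.0558. It passed as higher with upper quartile scaling (adjusted p = 0.0294), library size scaling (0.00448), the stricter filter (0.0398), thinned counts (0.0252), the GC and length offset (0.00532) and without static replicate 1 (0.0453). Rrn3, which recruits the polymerase to its promoter in growing cells, averaged 147.4 ± 2.42 and 145 ± 6.08 CPM in stretched and static libraries (adjusted p = 0.608). Ubtf, the gene of the architectural factor UBF, averaged 203.2 ± 4.27 CPM in stretched and 197.9 ± 4.47 CPM in static libraries (adjusted p = 0.411), and passed with library size scaling (0.1, adjusted p = 0.0347) and under the offset for GC content and length (0.11, adjusted p = 0.0168). Differences between the role groups were not tested.

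A wider list held 157 other ribosome biogenesis genes, sorted by textbook stage. Among the 156 tested, 83 rose (53.2%, where 24.9% of all genes tested rose) and 11 fell (where 25.9% of all genes fell). The median was 0.131 on the log2 scale. By stage, 8 of 11 Pol I transcription genes rose (none fell), and so did 8 of 12 snoRNP core and assembly genes (1 fell), 18 of 39 processome genes (3 fell), 4 of 10 late 40S genes (none fell), 29 of 60 genes of the 60S route (4 fell) and 16 of 24 ribosomal RNA nucleases (3 fell). The list was drawn up with earlier results of these data known. The middle of both distributions lay to the right of that of all genes and was narrower, with quartiles of 0.037 and 0.281 for the members, 0.032 and 0.214 for the other genes and -0.173 and 0.181 for all genes, while the curves met at the upper end.

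**Figure D4:**
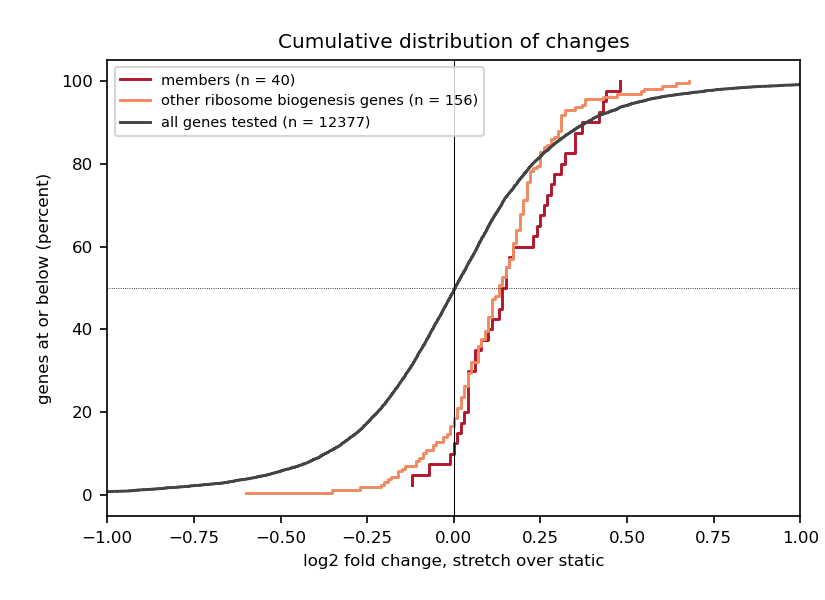
Cumulative share of genes (percent) by log2 fold change, stretch over static, for the 40 members, 156 other ribosome biogenesis genes and all 12377 genes tested; the axis is limited to -1 to 1. The curves of both lists cross 50% near 0.145 and 0.131, and that of all genes near 0.004.

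Of the other genes named here, those with the lowest p of each stage, basal Pol I factors and nucleases had the largest increases. Taf1d and Taf1a encode subunits of the selectivity factor SL1, which marks the ribosomal DNA promoter. Taf1d had 40.70, 44.49 and 40.12 CPM in stretched libraries, against 25.83, 24.42 and 27.60 CPM in static libraries (log2 fold change 0.68, SE 0.058, adjusted p = 2.41e-07). Taf1a averaged 10 ± 0.514 and 6.292 ± 1.29 CPM in stretched and static libraries (adjusted p = 0.000386). Its log2 fold change was 0.64. Exosc8, of the ring of the RNA exosome, averaged 60.65 ± 1.16 and 39.85 ± 1.5 CPM in stretched and static libraries, and Rpp30, of RNase P and RNase MRP, averaged 23.56 ± 0.895 CPM in stretched and 16.17 ± 0.149 CPM in static libraries (adjusted p = 4.43e-08 and 2.88e-06). In the same ring Exosc5 and Exosc4 fell, with log2 fold changes of -0.20 and -0.14. Exosc4 lost its call in DESeq2 (adjusted p = 0.0599), under the offset for GC content and length (0.287), with thinned counts (0.128), with library size scaling (0.171) and without stretch replicate 1 (0.0588), stretch replicate 2 (0.103) or static replicate 1 (0.0556), and Exosc5 without stretch replicate 1 (0.0541).

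In the other stages the leading genes were spread over both subunits. Mphosph10, a U3-associated processome gene, rose to 65.7 ± 1.89 CPM in stretched libraries, against 47.1 ± 2.96 CPM in static libraries, and Nat10, which acetylates 18S ribosomal RNA, to 59.1 ± 0.755 CPM in stretched against 45.56 ± 1.67 CPM in static libraries. Ftsj3 and Sdad1, of the 60S route, had log2 fold changes of 0.32 and 0.35 (adjusted p = 4.77e-06 and 4.93e-06). Dimt1, the dimethylase gene of 18S ribosomal RNA, and Tsr1, of late 40S maturation, had 0.38 and 0.19. Tgs1, which caps snoRNAs, and Rpap3 had 0.25 and 0.20. Rpap3 and Pih1d1 encode partners in the R2TP chaperone that builds snoRNPs, and Pih1d1 went the other way: it fell, with 27.51, 25.57 and 26.36 CPM in stretched libraries, against 38.46, 43.67 and 39.64 CPM in static libraries (log2 fold change -0.60, SE 0.056, adjusted p = 6.39e-07). Zfp622 and Nop53, late and middle 60S factors, fell with log2 fold changes of -0.35 and -0.27, and the processome genes Rrp7a and Nol6 with -0.21 and -0.16, though Nol6 was not called once GC content and length were offset (-0.06, adjusted p = 0.205).

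Level and length did not order the members' changes, while members richer in G and C tended to have lower log2 fold changes. Per length, Npm1 stood first, at 666 and 552 RPKM in stretched and static libraries, followed by Nhp2 and Ncl in static libraries at 124 and 118 RPKM. The longest annotated transcripts of Ncl, Nop58 and Wdr12 are 8202, 9507 and 10012 bases long, so per-length values of these genes are too low if a shorter transcript is the one expressed. Across the 40 members, Pearson's r of the log2 fold change was -0.01 with log2 RPKM in static libraries, 0.03 with log2 length and -0.37 with GC content (Spearman's rho -0.06, 0.03 and -0.41). Across 11782 tested genes r with GC content was -0.24, so genes rich in G and C tended to be lower under stretch throughout the table. Genes are not independent replicates, all values come from the same 6 libraries, and these are descriptions. With an offset for GC content and length 27 members were called higher and none lower, against 23 and 2 without it. Over the 11782 tested genes of known GC content and length, that offset called 2850 higher and 3020 lower. Without it 3087 and 3211 of the 12377 genes tested were called. The 20 members called both ways included all chaperone and box C/D genes. Nop10, Utp18, Utp20, Bysl and Polr1c lost their calls, and Bop1, Gar1, Nle1, Polr1b, Rrp12, Rrs1 and Ubtf gained one, all as higher.

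**Figure D5:**
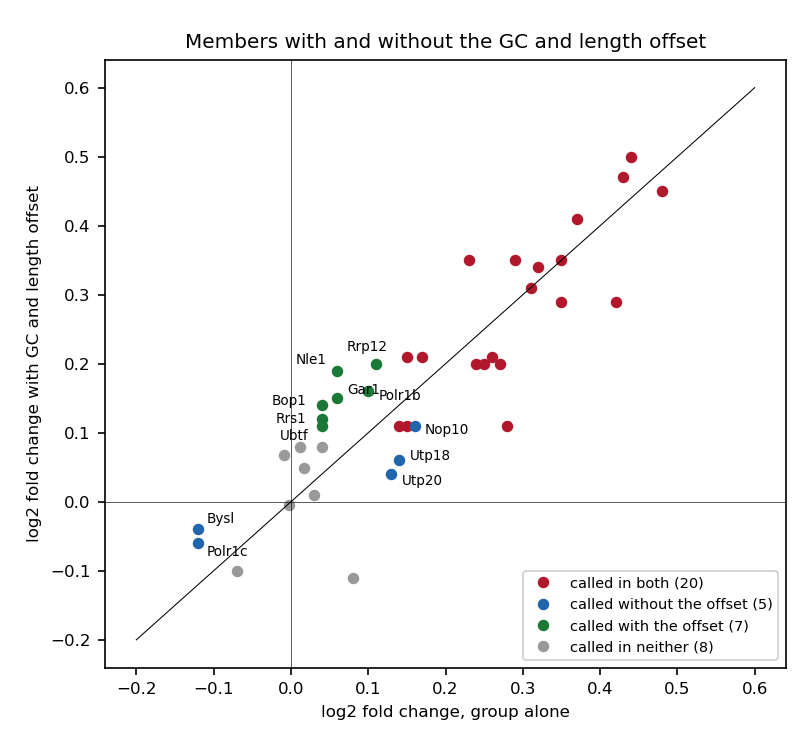
Log2 fold change of the 40 members without (horizontal) and with (vertical) the offset for GC content and transcript length, coloured by whether the adjusted p was under 0.05 in each; the line marks equal values. Of the members 20 are called both ways, 5 only without the offset and 7 only with it.

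Most members varied less among the stretched than among the static libraries, a difference that was not tested. The coefficient of variation over the 3 libraries had a median of 2.81% in stretched and 3.46% in static libraries, and 11 members varied more in the stretched and 29 in the static group. Between libraries of the same group, over all genes tested, the chi-square over its degrees of freedom was 1.88 to 2.29 for stretched libraries. For static libraries it was 3.35 to 7.64, so the wider static spread was not particular to the members. Static replicate 2 was the lowest of the static libraries in 18 members, and stretch replicate 2 the lowest of the stretched libraries in 18. Leaving out any single library left 22 to 24 members called higher, and 2478 to 3075 of all genes.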

How the data were processed

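Expression was compared between 3 stretched and 3 static samples of B16F10luc2 cells. Per the labels' protocols, RNA was taken with Trizol and RNeasy columns and libraries were made by standard BGI procedures; for strand and poly(A) selection no source used here gives a statement. What the authors deposited is 1 table of estimated counts, in whole numbers, by Entrez gene. Salmon 1.4.0 is named, per the submitters' processing notes, with mm10 and GRCm38 as builds, but not how transcripts were summed to genes. Salmon splits reads that fit several transcripts by a model, so counts of near-identical genes are uncertain. Every gene had at least 10 counts over the 6 libraries.

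Symbols came from RefSeq GRCm38.p6 (14875 of 14883 numbers matched) and lengths and GC content from GENCODE M21. In edgeR 4.0.16 (R 4.3.3), filterByExpr (minimum count 10) left 12377 genes. Libraries were scaled by TMM (factors 0.9656 to 1.024), the quasi-likelihood fit had group as its sole term (4 residual degrees of freedom), and p-values, two-sided, were adjusted by Benjamini-Hochberg over all genes tested. The biological coefficient of variation was 3.6%. The smallest p of an exact test of 3 against 3 is 0.1; calls here draw on the spread of all genes. The procedure was run on simulated counts with 200 changed genes, far fewer than the 6298 genes called here. That run does not measure error rates in these data. No 2 libraries of a group were the same within counting noise: the chi-square over its degrees of freedom was 1.88 to 7.64. Members, lists and the rule for names (all members; in each other list the 2 called genes of lowest p per direction) were chosen with earlier results of these data known. Alternatives were scaling by RLE, by upper quartile or by library size, no filter, 5 CPM in 3 libraries, DESeq2 1.42.0, limma-voom (limma 3.58.1), glmTreat at 1.2-fold, a block for replicate number, counts thinned to 19469286, a per-library spline offset (5 degrees of freedom) on GC content and length (known for 95.2% of tested genes), that offset with the block, and each library left out.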

Additional observations from a re-analysis of the deposited data

How the results depend on the processing

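Of the 23 members called higher, 19 stayed so under each alternative other than the null of 1.2-fold, and 6 under that one too. Against 1.2-fold, 6 members passed, all of them higher and 0 lower, and so did 9 other ribosome biogenesis genes (8 higher, 1 lower) and 1592 of all genes (679 higher, 913 lower). The 2 lower members became 1 with upper quartile scaling, DESeq2 or thinned counts, 0 when scaled by library size or offset for GC content and length (0 with the block too), and 0 to 3 with 1 library left out. The 11 lower other genes became 7 with library size scaling and 7 in DESeq2. With library size scaling all genes were called higher in 4115 cases and lower in 2402, against 3087 and 3211 with TMM, and the median log2 fold change was 0.206 for the members and 0.192 for the other genes, which had 0.146 with upper quartile scaling and 0.115 to 0.137 with 1 library left out. Same-numbered samples showed no sign of pairing (correlations of their deviations -0.003, 0.016 and -0.067), though 3 libraries per group cannot exclude it. With the replicate block 23 members were called higher and 2 lower, with a median of 0.147, and with the block and the GC and length offset 27 were called higher. Over all genes those settings called 2924 and 2710 higher. Not every library correlated best with its own number, and the block changed no call of a member.

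Some members that did not pass changed direction. Wdr12 had -0.11 with the GC and length offset, with or without the block. Nop2 had 0.0066 with upper quartile and 0.052 with library size scaling, 0.0036 with thinned counts, 0.068 with the offset, 0.067 with the offset and block, and -0.036 to 0.01 with 1 library left out. Nop14 had 0.013 and 0.058 with those scalings, 0.0034 with the stricter filter, 0.00021 with the block, 0.0066 with thinned counts and -0.043 to 0.021 with 1 library left out. With 1 library left out Pes1 ranged from -0.021 to 0.046, Rrn3 from -0.01 to 0.05 and Nob1 from -0.0049 to 0.028. The cause was not tested. Counting error weighs most on Polr1e, with 228 counts in its lowest library, and 3 libraries per group limit what differences of a few percent can be called.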
